A study of Rattus norvegicus with 12 samples.

Results

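The proteasome genes described here are 39 of the 14217 genes that had a probe set naming them alone, each represented by its brightest such probe set over the 12 arrays. They are set by symbol (Psma, Psmb, Psmc, Psmd or Psme, without the inducible subunits Psmb8 and Psmb9). This set was chosen with earlier results of these data known, so its counts and medians are description only. Right lungs of rats of the Dahl salt-sensitive strain (SS), which develops hypertension on a high-salt diet, and of the Brown Norway strain (BN) were hybridised to Affymetrix arrays, with 3 control and 3 HTV-ventilated animals of each strain. The labels call the strains parents, do not spell out HTV, mention room air for samples of every group and give body weights of 250 to 350 g. The lung vessels were flushed with saline before freezing, and neither age, sex nor the length of ventilation is stated in the labels. No transgene or drug is named for any group. The labels number the animals separately, and every group has n = 3.

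The proteasome is the protease that degrades ubiquitin-tagged proteins. Its barrel-shaped 20S core has outer alpha rings, which gate the entry, and inner beta rings, in which the subunits encoded by Psmb5, Psmb6 and Psmb7 cut the substrate. A 19S cap binds the barrel: its base holds the Psmc ATPases, which unfold the substrate, and its lid holds the deubiquitinase Psmd14. In cells exposed to interferon gamma, inducible beta subunits such as Psmb10 replace the standard ones, and the PA28 activator of Psme1 and Psme2 can take the place of the cap.

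The 39 genes comprised 7 of the alpha ring, 7 of the beta ring, 6 ATPases and 3 other subunits of the base, 8 of the lid, 3 chaperones of base assembly (Psmd5, Psmd9 and Psmd10), 3 activator genes and 2 genes whose symbols meet the rule although they encode no subunit. Those are Psmc3ip, which acts in meiotic recombination, and Psme3ip1, which encodes a protein that binds an activator. Every probe set of Psmb6 and Psme3 also names other genes and neither gene was analysed here. All 39 probe sets passed the filter on low intensity, with mean intensities from 122 to 1374. Their median was 441, against 210 over all 10555 genes tested, so the members were brighter than most genes they are set against. Each sum or difference below is in bulk lung, where fewer cells of a type and less RNA per cell cannot be told apart. The lung markers Sftpc, Scgb1a1 and Ager had mean intensities of 3801, 3835 and 2348.

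The promoters of 4 members are shown because Psma2, Psmb2 and Psmd4 were higher in SS than in BN control lungs and Psmd5 was lower after HTV in SS lungs. They are RefSeq sequences of GRCr8, a Brown Norway genome, so they show the BN allele, from 250 bases before to 50 bases after the gene's start. Capitals mark CCAAT, the letters bound by the factor NF-Y, and TGACNNNGC, the core of the antioxidant response element bound by Nfe2l1 and Nfe2l2, on either strand.
Psma2, chr17:55260392-55260691, minus strand: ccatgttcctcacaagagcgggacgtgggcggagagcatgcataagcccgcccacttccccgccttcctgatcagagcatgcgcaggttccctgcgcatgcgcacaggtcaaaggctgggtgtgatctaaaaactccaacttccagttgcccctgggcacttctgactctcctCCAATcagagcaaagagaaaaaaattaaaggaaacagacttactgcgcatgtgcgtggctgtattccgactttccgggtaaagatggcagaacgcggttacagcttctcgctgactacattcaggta
Psmb2, chr5:144254808-144255107, plus strand: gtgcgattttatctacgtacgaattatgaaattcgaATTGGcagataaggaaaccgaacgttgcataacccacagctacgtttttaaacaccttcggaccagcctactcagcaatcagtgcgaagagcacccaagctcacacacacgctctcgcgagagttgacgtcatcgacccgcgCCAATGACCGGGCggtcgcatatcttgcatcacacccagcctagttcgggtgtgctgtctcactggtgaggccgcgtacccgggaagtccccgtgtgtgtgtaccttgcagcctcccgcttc
Psmd4, chr2:185297152-185297451, minus strand: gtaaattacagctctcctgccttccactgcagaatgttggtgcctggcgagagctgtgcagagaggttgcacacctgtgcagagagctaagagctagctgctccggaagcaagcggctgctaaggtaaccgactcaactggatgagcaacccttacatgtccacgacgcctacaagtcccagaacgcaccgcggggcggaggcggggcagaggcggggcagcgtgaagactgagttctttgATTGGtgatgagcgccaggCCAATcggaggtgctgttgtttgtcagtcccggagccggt
Psmd5, chr3:38548441-38548740, minus strand: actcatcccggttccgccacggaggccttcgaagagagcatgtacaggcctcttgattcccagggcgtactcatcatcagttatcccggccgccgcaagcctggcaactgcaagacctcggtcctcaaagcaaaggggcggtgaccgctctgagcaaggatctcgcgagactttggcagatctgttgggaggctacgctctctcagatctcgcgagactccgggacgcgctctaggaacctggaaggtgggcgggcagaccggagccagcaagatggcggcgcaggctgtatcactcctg
In Psmb2 a CCAAT and the TGACNNNGC match overlap, and Psmd5 holds neither motif. Of the 35 members with a promoter in the table, 18 held CCAAT (51.4%), against 37.7% of all 27457 promoters of the same length. TGACNNNGC was in 7 (20%, against 12.2%) and the GC box GGGCGG in 24 (68.6%, against 34.9%), both strands counted. A match describes letters and does not show that a factor binds there.

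Without HTV, 15 of the 39 proteasome genes were higher in SS than in BN lungs, among them Psma2, Psme2, Psmd4 and Psmb2, and most others had the same sign. The SS minus BN difference in control lungs was above 0 for 36 of the 39 genes, with a median of 0.29 on the log2(intensity + 16) scale used for every difference, while 48.1% of all 10555 genes tested lay above 0 and their median was -0.01. By limma with Benjamini-Hochberg adjustment over all kept probe sets, 15 members were higher in SS at an adjusted p below 0.05, against 5.87% of all genes, and 1 (Psme3ip1) was lower, against 5.16% (11.0% of all genes in either direction). Among brighter probe sets only, from the 60th percentile of mean intensity, 16 members were called in either direction, against 12.7% of genes. At an unadjusted p below 0.05 there were 26, against 27.1% of all genes. Each of the SS arrays lay above each of the BN arrays for 25 members (16.3% of all genes) and below for 1 (16.4%). Among the 31 genes of the core and the cap 13 were called higher and 0 lower (21 and 0 at an unadjusted p below 0.05).

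These counts depended on single arrays more than the direction did. SS control 3 held the highest value of all 12 arrays for 26 members. Without SS control 3, the difference was above 0 for 34 members, its median was 0.25, and 7 of 39 were called in either direction (9.32% of all genes), against 16 with it. The count was 4 without SS control 2 (5.36% of all genes), 2 without BN control 2 (3.44%), 6 without BN control 3 (6.07%) and 6 when only the control arrays were fitted (6.70%), so the share of all genes called was lower in these fits too. With any 1 array left out, 34 to 36 members stayed above 0 and the median was 0.25 to 0.35. Psma2 and Psmd4 passed in all 24 alternatives.

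**Figure D1:**
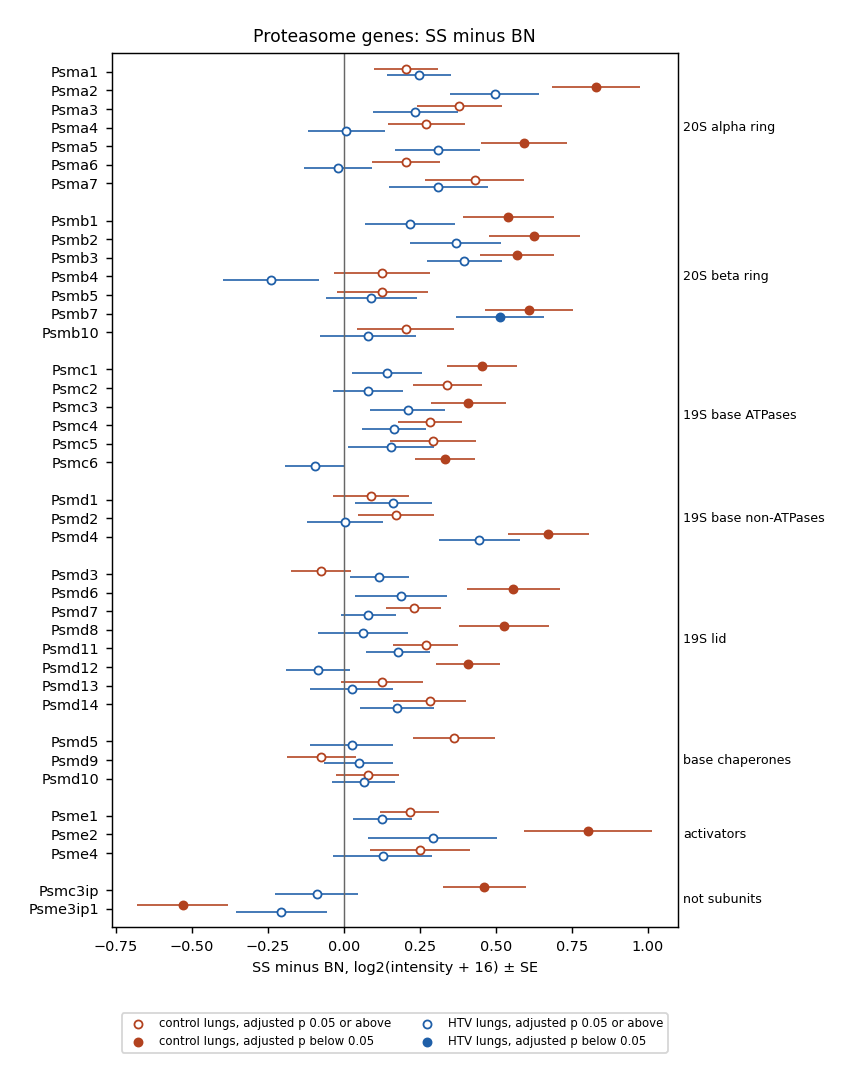
SS minus BN difference of each of the 39 genes on the log2(intensity + 16) scale (points, ± SE), in control lungs (red) and HTV lungs (blue), by subcomplex; filled points have an adjusted p below 0.05. In control lungs 36 genes lie right of 0 and 16 points are filled; in HTV lungs 33 lie right of 0 and only that of Psmb7 is filled.

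In the alpha ring, all 7 genes were above 0 in control lungs (median 0.38) and 2 were called. Psma2 had intensities of 704, 826 and 1095 in the SS control arrays and 495, 406 and 539 in the BN control arrays. The groups do not overlap, and even the lowest SS array is well above the highest BN array. The difference was 0.83 ± 0.15 (adjusted p = 0.00353). Under HTV the same gene had 630.2, 706 and 670.3 in SS and 448, 466 and 495 in BN lungs, still without overlap, with a difference of 0.50 ± 0.15 (adjusted p = 0.0526). Psma5 had 605, 689.6 and 904 in SS against 514, 399.5 and 518 in BN controls, a difference of 0.59 ± 0.14 (adjusted p = 0.0175), lost without BN control 2 (adjusted p = 0.0915) and when only the control arrays were fitted. In HTV lungs its intensities were 547, 599 and 611 in SS and 441, 490.5 and 479 in BN. The other alpha genes, Psma1, Psma3, Psma4, Psma6 and Psma7, differed by 0.20 to 0.43 and did not pass.

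All 7 genes of the beta ring were above 0 as well, with a median of 0.54, and 4 were called. Psmb7, the trypsin-like catalytic subunit, had 655, 819 and 917 in SS and 595, 448 and 505 in BN controls. After HTV it had 540.1, 725 and 691 and 440.0, 448 and 458, so that SS lay above BN without overlap in both conditions. Its difference was 0.61 ± 0.14 (adjusted p = 0.0173) in control and 0.51 ± 0.14 (adjusted p = 0.0439) in HTV lungs. On the brightest probe sets it was the only member called in HTV lungs, and that call was lost in 11 of the 24 alternatives (adjusted p up to 0.174). The control call was lost when SS control 2, BN control 2 or BN control 3 was left out (adjusted p up to 0.0891).

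The structural subunit Psmb3 had 942, 1056 and 979.6 in SS and 743, 587 and 667 in BN controls, and 685, 912 and 886 against 604, 670.4 and 589 after HTV. Its arrays did not overlap in either condition, and the difference was 0.57 ± 0.12 (adjusted p = 0.011) in controls and 0.40 ± 0.12 (adjusted p = 0.0643) in HTV lungs. Psmb2 had 518, 644 and 594 against 476, 290.1 and 373 in controls, a difference of 0.63 ± 0.15 (adjusted p = 0.0178), with BN control 2 the lowest array. Its call ended when SS control 2, BN control 2 or BN control 3 was left out (adjusted p up to 0.0826), and that of Psmb3 without BN control 2 (adjusted p = 0.061). After HTV Psmb2 had 477, 557 and 548 in SS and 397, 386 and 431 in BN. Psmb1 had 1216, 1305 and 1784 against 1096, 877 and 939.9, a difference of 0.54 ± 0.15 (adjusted p = 0.0323) that was lost without SS control 3, SS control 2, BN control 2 or BN control 3 (adjusted p up to 0.138). Its HTV arrays, 1000.3, 1243 and 913 in SS and 841, 942 and 906 in BN, overlapped.

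Not every beta gene had a clear gap. Psmb4 had 1072, 1177 and 1819 in SS and 1222, 1183 and 1217 in BN controls, and only SS control 3 stood above the BN arrays. After HTV it had 1115, 1141 and 999.5 in SS, below each of the BN values of 1149, 1424 and 1291, at a difference of -0.24 ± 0.16 (adjusted p = 0.39). The inducible subunit Psmb10, which replaces Psmb7 in the immunoproteasome, had 331, 377 and 437 in SS and 330.3, 333 and 319 in BN controls, which overlap, a difference of 0.20 ± 0.16 (adjusted p = 0.42). Its HTV arrays read 329.9, 327 and 396 in SS and 290.3, 442 and 279 in BN lungs. Psmb5, the chymotrypsin-like subunit, differed by 0.13 ± 0.15 (adjusted p = 0.607) in control lungs. Of the catalytic genes measured, Psmb7 was called and Psmb5 and Psmb10 were not; the differences between these genes were not tested.

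The 6 ATPases of the base were all above 0 in control lungs (median 0.34), and 3 were called. Psmc1 had 379, 432 and 458 in SS and 334, 282 and 296 in BN controls (0.45 ± 0.12, adjusted p = 0.0228). Psmc3 had 555, 638 and 656 against 495, 435 and 449 (0.41 ± 0.12, adjusted p = 0.045). Psmc6 had 328, 302 and 363 against 252, 272 and 253 (0.33 ± 0.10, adjusted p = 0.0427). For each of these genes the control arrays of the strains did not overlap, but the calls were close to the threshold: that of Psmc1 was kept in 18 of 24 alternatives and those of Psmc3 and Psmc6 in 9 each, with adjusted p up to 0.104, 0.164 and 0.118. Control 2 or control 3 of either strain, left out, ended each of these calls. In HTV lungs Psmc1 had 404, 452 and 424 in SS and 354, 442 and 363 in BN, and Psmc3 had 492, 569 and 542 and 401, 553 and 435. Both sets overlap, as do those of Psmc6, with 319.5, 303 and 294 in SS and 332, 313 and 338 in BN.

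Psmd4, a ubiquitin receptor in the base, was called in every alternative. Its intensities were 319, 359.6 and 370.5 in SS and 242, 176 and 226 in BN controls, and 272, 312 and 298 and 204, 246 and 188 after HTV. No SS array fell to the level of a BN array in the same condition. The difference was 0.67 ± 0.13 (adjusted p = 0.0076) in control and 0.45 ± 0.13 (adjusted p = 0.0576) in HTV lungs. The scaffold subunits Psmd1 and Psmd2 differed by 0.09 and 0.17 in controls and did not pass.

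In the lid, 7 of 8 genes were above 0 in controls (median 0.28) and 3 were called. Psmd6 had 512, 684 and 739.5 in SS and 512, 356 and 430.5 in BN controls (0.56 ± 0.15, adjusted p = 0.0312), with SS control 1 just above BN control 1. Psmd8 had 431, 470.5 and 539 against 374, 288 and 324 (0.53 ± 0.15, adjusted p = 0.0354). Psmd12 had 292, 306 and 349.8 against 235, 242 and 224 (0.41 ± 0.11, adjusted p = 0.025). The strains do not overlap for any of the 3, and each call was lost when control 2 or control 3 of either strain was left out, with adjusted p up to 0.15 for Psmd6, 0.154 for Psmd8 and 0.0856 for Psmd12. The lid gene below 0 was Psmd3, with 300.1, 315 and 285 in SS and 280.3, 335 and 338 in BN controls (-0.07 ± 0.10, adjusted p = 0.648). Psmd13 had 298, 295 and 264 and 258, 255 and 268 (0.13 ± 0.14, adjusted p = 0.572), and the remaining lid genes differed by 0.23 to 0.28.

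Among the activators, Psme2, the beta subunit of PA28, had 614, 679 and 858 in SS and 453, 274 and 515 in BN controls. The difference was 0.80 ± 0.21 (adjusted p = 0.0267), and BN control 2 lay far below the other BN arrays. Leaving out BN control 2, SS control 2 or SS control 3 ended the call (adjusted p up to 0.116), as did the fit with the beta-actin ratio as a covariate. Psme1, the alpha subunit of PA28, had 1407, 1514 and 1816 against 1386, 1296 and 1364, a gap without overlap that did not pass (0.22 ± 0.10, adjusted p = 0.157). Psme4, which encodes the PA200 activator, had 369, 363 and 587 against 385, 355 and 336 (0.25 ± 0.16, adjusted p = 0.331), where SS control 3 alone was high.

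The 2 genes that encode no subunit went opposite ways. Psmc3ip was higher in SS controls, with 144, 148 and 150.2 against 115, 78 and 119.9 (0.46 ± 0.14, adjusted p = 0.042). Psme3ip1 was lower, with 264, 280.3 and 285 against 371, 452 and 399 (-0.53 ± 0.15, adjusted p = 0.036). The calls were lost in 13 and 8 of the 24 alternatives, with adjusted p up to 0.177 and 0.152.

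**Figure D2:**
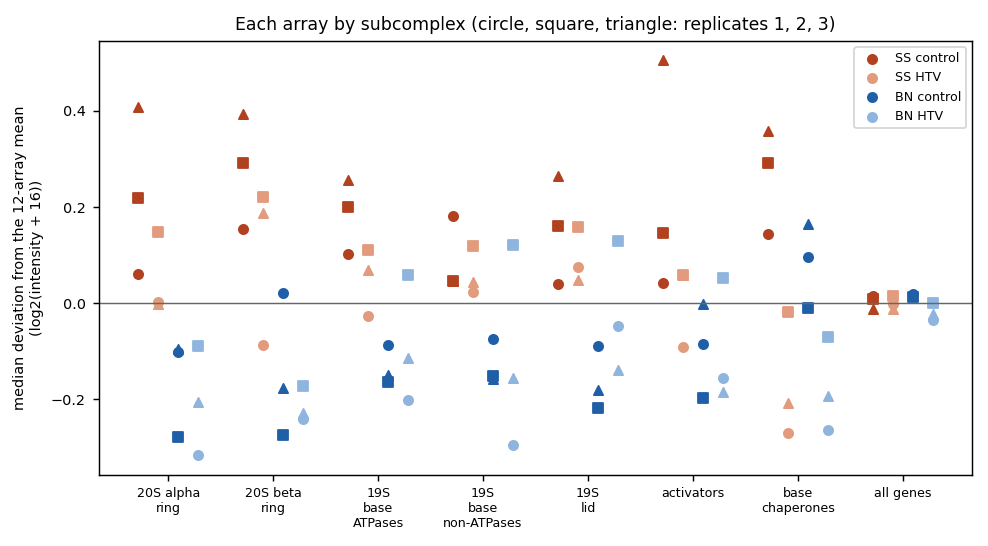
Median deviation of each array from the 12-array mean, log2(intensity + 16), over the genes of each subcomplex and over all 10555 genes (colours: groups; circle, square and triangle: replicates 1, 2 and 3). SS control 3 is the highest array in the alpha ring (0.41) and the beta ring (0.39), while all genes stay within -0.03 and 0.02.

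The plot of medians by array shows how far the arrays of a group spread. Over the 39 members the median deviation from the 12-array mean was 0.07, 0.20 and 0.35 in SS controls and -0.04, -0.20 and -0.11 in BN controls. It was -0.02, 0.15 and 0.04 in SS HTV and -0.22, 0.05 and -0.18 in BN HTV lungs. Strains are separated in the controls, and under HTV BN HTV 2 lies among the SS arrays. SS control had the highest group mean for 29 of the 39 members (30.1% of all genes); BN control had the lowest for 18 (18.99%) and BN HTV for 17 (29.0%). The spread within a group was a median coefficient of variation of 11.5% over members in SS control, 6.82% in SS HTV, 7.25% in BN control and 10.7% in BN HTV lungs.

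Other measures moved with strain as well. The log2 ratio of 5-prime to 3-prime beta-actin signal, a sign of RNA integrity, was higher in SS than in BN arrays by 0.47 (exact two-sided permutation test over 12 arrays, p = 0.0498) and by 0.38 in controls alone (exact permutation test, p = 0.4, where 3 against 3 arrays cannot go below 0.1). SS control 3, the array with the highest proteasome values, had a ratio of -1.41, within the BN control range of -1.47 to -0.88. With this ratio as a covariate the median strain difference of the members in controls was 0.34 and 11 were called, against 9.57% of all genes.

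Summed intensities of cell markers differed between the control groups for some lists. The 5 cardiac muscle markers measured summed to 66.8 to 432 in SS and 904 to 2222 in BN controls, the 9 T and NK cell markers to 1061 to 1667 and 945 to 1024, the 2 B cell markers to 182 to 282.5 and 216.5 to 273, and the 9 lung epithelial and endothelial markers to 20275 to 25575 and 23249 to 25833. Of these, 4 of 5 cardiac markers were lower and 2 of the 7 T and NK cell markers that passed the filter higher in SS, 1 of 9 lung markers was higher and 1 lower, and 0 of 2 B cell markers were called by limma (0 at an unadjusted p below 0.05). Over all genes 5.87% were called higher in SS and 5.16% lower. Above 0 were 5 of 6 neutrophil, 3 of 3 macrophage, 2 of 2 red cell and 3 of 4 proliferation markers. The medians of these lists were 0.42, 0.27, 0.87 and 0.29, and limma called 0 in each. At an unadjusted p below 0.05, 2 neutrophil markers and 1 macrophage marker were higher in SS. No marker in these lists was at 0 on any array. The part of these differences in the proteasome result was not tested.

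Under HTV the SS minus BN difference was above 0 for 33 of 39 genes with a median of 0.13, against 0.29 in control lungs, while 52.1% of all genes lay above 0 (median 0.01). Leaving out any 1 array gave a median of 0.10 to 0.24, with 28 to 34 members above 0. The median was 0.24 without BN HTV 2 and 0.10 without SS HTV 2 or BN HTV 3. The limma test called 1 higher (all genes: 4.01%) and 0 lower (3.27%, and 7.28% in either direction). At an unadjusted p below 0.05 there were 7 higher and 0 lower (21.7% of all genes in either direction). SS arrays lay above BN arrays without overlap for 11 members (15.9% of all genes), and below them for 1, Psmb4 (12.5%). By subcomplex the medians were 0.25 in the alpha ring, 0.22 in the beta ring, 0.15 in the ATPases and 0.10 in the lid. The gap was larger in control than in HTV lungs for 34 of the 39 members.

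That change of the gap is the difference between the strains in their HTV response, which was tested gene by gene. Limma's interaction test called 0 of the 39 members (0.00% of all genes), and 4 had an unadjusted p below 0.05 (8.53% of all genes), all with a lower change in SS. The interaction was below 0 for 34 members, while 53.6% of all genes lay above 0. Its median was -0.17 (0.03 over all genes), and single arrays moved it: it was -0.27 without SS control 1 and -0.10 without BN HTV 2, and -0.14 without SS control 3. The lowest p belonged to the lid subunit Psmd12. Its intensities after HTV were 255, 292 and 291 in SS, below each SS control, and 279.5, 322 and 290.2 in BN, above each BN control. The interaction was -0.49 ± 0.15 (adjusted p = 0.534), with an unadjusted p of 0.00558. For Psmd8 the HTV arrays read 326, 448 and 355 in SS and 323, 425 and 329.6 in BN (-0.46 ± 0.21, adjusted p = 0.591), and the interactions of Psmc6 and Psmc3ip were -0.43 ± 0.14 (adjusted p = 0.564) and -0.55 ± 0.19 (adjusted p = 0.576).

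In SS lungs the base chaperone genes Psmd5 and Psmd10 fell after HTV and no gene of the core or cap passed; under quantile normalization 1, Psmb1, did. The HTV minus control difference was below 0 for 30 of 39 members, with a median of -0.17 (48.5% of all genes were above 0, and their median was -0.01). Single arrays left out gave 7 to 10 members above 0 and medians of -0.24 to -0.12, with -0.12 without SS control 3. The SS control arrays serve both this difference and the strain difference in control lungs. The limma test called 2 of 39 lower and 0 higher, against 4.12% and 3.92% of all genes (8.04% in either direction). The count called lower was thus near the share over all genes. At an unadjusted p below 0.05 there were 11 lower and 1 higher (25.3% of all genes in either direction). Among the 31 core and cap genes 0 passed, with 6 at an unadjusted p below 0.05, all lower. HTV arrays lay below the controls without overlap for 12 members (16.6% of all genes) and above them for 3 (14.1%). Medians were -0.25 in the alpha ring, -0.27 in the beta ring, -0.14 in the ATPases and -0.09 in the lid.

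Both genes that fell in SS lungs encode chaperones that assemble the base. Psmd5 had 361, 434 and 406 in SS controls and 212, 285 and 229 after HTV. Every HTV array is below every control, and the gene fell by 0.70 ± 0.14 (adjusted p = 0.00786), in all 24 alternatives. In BN lungs Psmd5 went from 309.8, 287 and 326 to 201, 274 and 237, again without overlap, a difference of -0.36 ± 0.14 (adjusted p = 0.153) that did not pass.

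Psmd10, which encodes the base chaperone gankyrin, went from 295, 328 and 345 in SS controls to 217, 246 and 228 after HTV. In BN it went from 323, 282 and 308 to 218, 209.8 and 230.1. The 6 HTV arrays lie between 210 and 246 and the 6 controls between 282 and 345. The gene fell by 0.46 ± 0.10 in SS (adjusted p = 0.0168) and by 0.44 ± 0.10 in BN (adjusted p = 0.0221), and the interaction was -0.01 ± 0.15 (adjusted p = 0.981). The SS call was lost in the SS arrays alone and when SS HTV 1, SS HTV 3 or SS control 2 was left out, with an adjusted p as high as 0.0739. The BN call was lost when BN control 1 or 3, or BN HTV 1 or 2, was left out, with an adjusted p as high as 0.0908. The third base chaperone, Psmd9, had the opposite sign in both strains: 115, 142 and 117 in SS controls against 154, 164 and 149.5 after HTV (0.29 ± 0.11, adjusted p = 0.132), and 133, 132 and 131 against 151, 162 and 137 in BN (0.17 ± 0.11, adjusted p = 0.463). Its HTV arrays lie above the controls without overlap in each strain, but neither difference passed. A dimmer Psmd9 probe set had the same sign, at 0.17 ± 0.19 in SS (adjusted p = 0.599) and 0.16 ± 0.19 in BN (adjusted p = 0.7), with overlap in both.

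**Figure D3:**
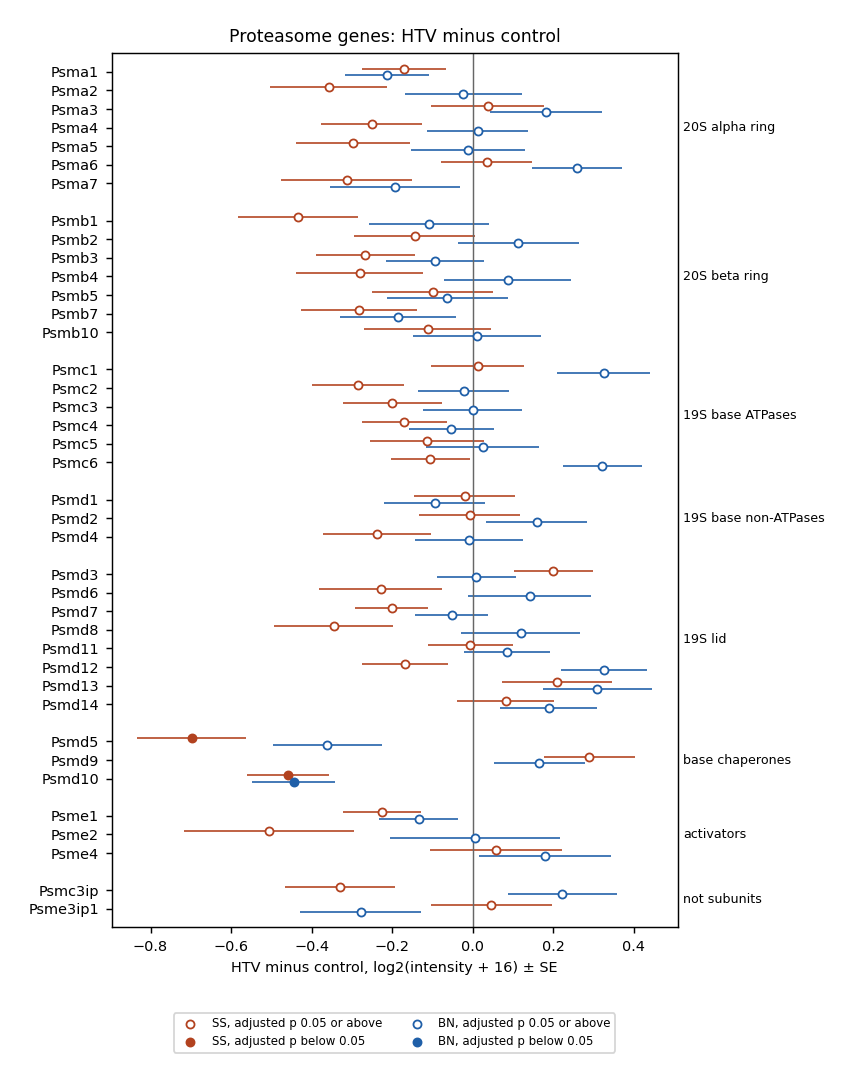
HTV minus control difference of each of the 39 genes on the log2(intensity + 16) scale (points, ± SE), in SS (red) and BN lungs (blue); filled points have an adjusted p below 0.05. The filled points are Psmd5 in SS and Psmd10 in both strains, and 30 SS points and 18 BN points lie left of 0.

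Further differences in SS lungs did not pass. Psme2 had 433, 543 and 517 after HTV, below each SS control (-0.51 ± 0.21, adjusted p = 0.156), and in BN 338, 507 and 378 (0.01 ± 0.21, adjusted p = 0.991). Psme1 had 1282, 1372 and 1370.0 in SS and 1224, 1258 and 1199 in BN HTV arrays, below the controls of each strain without overlap (-0.23 ± 0.10, adjusted p = 0.168 and -0.13 ± 0.10, adjusted p = 0.491). A dimmer Psme1 probe set had the opposite sign, at 0.51 ± 0.21 in SS (adjusted p = 0.151) and 0.14 ± 0.21 in BN (adjusted p = 0.779). Psmb1 differed by -0.43 ± 0.15 (adjusted p = 0.0913) in SS, and it passed under quantile normalization. The lid subunits Psmd3 and Psmd13 had positive values in SS, with 342, 356 and 343 and 324, 351 and 322 in the HTV arrays, each above its controls (0.20 ± 0.10, adjusted p = 0.22 and 0.21 ± 0.14, adjusted p = 0.354). In BN HTV lungs these genes had 315, 324 and 317 and 345, 397 and 253. The PA200 gene Psme4 had 491, 427 and 427 in SS and 396, 475 and 361 in BN HTV arrays (0.06 ± 0.16, adjusted p = 0.854 and 0.18 ± 0.16, adjusted p = 0.606).

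In BN lungs the members divided between both signs after HTV. The difference was above 0 for 21 and below 0 for 18, with a median of 0.01 (all genes: 43.5% above 0, median -0.03), and leaving out single arrays gave 13 to 26 above 0. The limma test called 1 lower, Psmd10, and 0 higher, against 2.69% and 2.99% of all genes (5.68% in either direction). Here too the count called lower was near the share over all genes. At an unadjusted p below 0.05 there were 2 lower and 5 higher (19.7% of all genes in either direction). HTV arrays lay above the controls without overlap for 5 members (10.5% of all genes) and below for 3 (16.2%). The highest values belonged to the ATPases Psmc1 and Psmc6 and the lid subunit Psmd12, at 0.33 ± 0.12 (adjusted p = 0.128), 0.32 ± 0.10 (adjusted p = 0.0762) and 0.33 ± 0.11 (adjusted p = 0.0964). For each of them every BN HTV array lay above every BN control, although none passed; Psmc6 passed without SS control 3 and with array weights. The lid gene Psmd13 passed without BN HTV 3. The genes that encode no subunit had 124, 119.7 and 124 (Psmc3ip) and 288, 436 and 292 (Psme3ip1) in BN and 111, 120.0 and 112 and 321, 289 and 252 in SS HTV arrays.

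**Figure D4:**
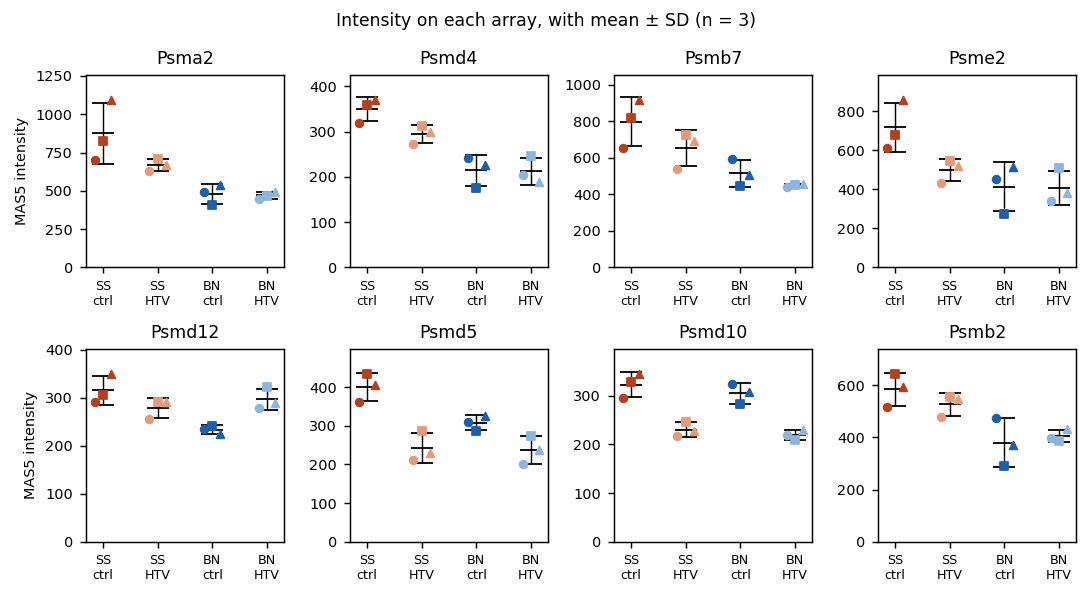
Intensity of 8 members on each array (circle, square and triangle: replicates 1, 2 and 3), with the mean ± SD of each group (n = 3) and axes from 0. Psma2, Psmd4 and Psmb7 separate the strains in both conditions, Psmd5 and Psmd10 separate HTV from control arrays, and Psmd12 is lowest in BN controls.

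Cell markers shifted beside the members after HTV. Of 6 neutrophil markers, 4 rose in SS and 5 in BN lungs. Their summed intensity was 1393 to 2347 in SS controls and 5238 to 7603 in SS HTV lungs, and 918 to 1600.0 and 2840 to 8033 in BN. The 2 B cell markers measured summed to 182 to 282.5 in SS controls and 62.2 to 102 after HTV, and to 216.5 to 273 and 87.3 to 175 in BN. The 9 T and NK cell markers summed to 1061 to 1667 and 902 to 927 in SS, and to 945 to 1024 and 619 to 821 in BN. Both B cell markers and 1 T and NK cell marker fell in SS, and 1 B cell marker fell in BN. The part of these shifts in the fall of Psmd5 and Psmd10 was not tested.

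Several members have more than 1 probe set, and these disagreed for some. The second probe sets of Psmc6 and Psmd14 passed in control lungs, at 0.66 ± 0.11 (adjusted p = 0.00289) and 0.77 ± 0.14 (adjusted p = 0.00527), above the 0.33 and 0.28 of the brightest ones. After HTV in SS lungs this Psmd14 probe set lay below the controls without overlap (-0.44 ± 0.14, adjusted p = 0.0773). The brightest Psmd14 probe set gave 0.08 there, with overlap. For Psme4 the 3 probe sets gave 0.25, 0.65 (adjusted p = 0.00381) and -0.26 in control lungs. In HTV lungs they gave 0.13, 0.40 (adjusted p = 0.0469) and -0.21, so the second passed there too. For Psme1 the dimmer one gave -0.51 in control lungs, and for Psmd11 the brightest gave 0.27 and the next -0.07. With the mean of a gene's probe sets 17 members were called in control lungs, against 11.96% of all genes.

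Outside the rule, 32 genes of proteasome assembly, ubiquitin binding and regulation were measured. In control lungs 24 were above 0 (median 0.11), 2 were called higher in SS and 0 lower by limma (5.87% and 5.16% of all genes), with 8 higher and 1 lower at an unadjusted p below 0.05. Vcp, the ATPase that extracts ubiquitinated proteins for the proteasome, was higher in SS by 0.73 ± 0.12 in control (adjusted p = 0.00282) and 0.59 ± 0.12 in HTV lungs (adjusted p = 0.00988). The ubiquitin ligase Ube3a was higher by 0.58 ± 0.15 in control lungs (adjusted p = 0.0292). Nfe2l1, the transcription factor that raises proteasome genes when the proteasome is inhibited, differed by -0.33 ± 0.18 (adjusted p = 0.243). The 5 chaperones of core assembly, Pomp and Psmg1 to Psmg4, had a median of 0.30 with 0 past the limma test and 2 at an unadjusted p below 0.05. Cap subunits without a Psm symbol split, with Sem1 at 0.24 ± 0.13 and Adrm1 at -0.60 ± 0.21 (adjusted p = 0.243 and 0.0711).

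After HTV 1 of these genes rose and 2 fell in SS lungs, and 1 rose and 1 fell in BN lungs, where 8.04% and 5.68% of all genes were called. Zfand2a, an arsenite-inducible protein that binds the proteasome, rose by 0.57 ± 0.14 in SS (adjusted p = 0.028) and by 0.75 ± 0.14 in BN lungs (adjusted p = 0.00783). In SS lungs Ube3a fell by 0.57 ± 0.15 (adjusted p = 0.0385) and the inducible subunit Psmb8 fell by 0.46 ± 0.12 (adjusted p = 0.0309). Psmb9 differed by -0.09 ± 0.15 in SS and -0.24 ± 0.15 in BN and did not pass. In BN lungs Psmg2, a chaperone of alpha ring assembly, fell by 0.33 ± 0.09 (adjusted p = 0.0431).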

How the data were processed

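The authors deposited 1 linear intensity for each probe set and array. MAS5 is named in the submitters' processing notes, without settings. Trimmed of the lowest and highest 2%, every array had a mean of 150, with medians of 58.5 to 68.1, so no further scaling was applied. Detection calls were not used here. Of 31099 probe sets, 57 controls were left out, and the platform annotation named 1 gene for 20826, several for 436 and none for 9780. Intensities were transformed as log2(intensity + 16), and the 18626 probe sets whose mean reached the 40th percentile (43.6) were tested in 1 model of 4 group means with limma 3.58.1 in R 4.3.3 (eBayes with trend, 8 residual degrees of freedom), with Benjamini-Hochberg adjustment for each of 5 comparisons at 0.05. SE are limma's moderated standard errors. On simulated data for the SS comparison the model recovered 22% of changes of 0.5 and 82% of changes of 1, with 4 false calls. That simulation changed 100 probe sets at each size and drew independent noise for each probe set. In the real SS comparison 1501 probe sets were called, so the rates of recovery and false calls may differ there. The members and gene lists were chosen with earlier results of these data known. Members were given in full where they passed a test, were among the 3 highest or lowest in a comparison, or were catalytic or activator subunits, up to 25 by smallest p; Psmb5 came after the limit, and its values were added after they were seen. The 24 alternatives were 12 that leave out an array and 12 that change the processing, the model or the arrays used. The last 12 include the fit without SS control 3 and BN HTV 3 together. The labels give separate animal numbers and no batch; p-values reflect only the spread among these arrays.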

Additional observations from a re-analysis of the deposited data

How the results depend on the processing

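The median member difference moved by less than 0.114, the SD of single-array member medians within groups, in every comparison and alternative. That limit is wide: it is nearly as large as the strain median under HTV, 0.13, which went to 0.24 without BN HTV 2. The interaction median went from -0.17 to -0.27 without SS control 1. The median member difference kept its direction except for HTV in BN lungs (0.01), where it was -0.05 with array weights, -0.04 without BN control 2 and -0.04 without BN HTV 2. Of 4641 values of single members under an alternative, 154 changed sign without passing the threshold in either fit, and 0 changed sign where either fit passed it; 120 lost a call and 29 gained one. The count of members called did change, and the cause was not tested. In control lungs 16 were called between strains (11.0% of all genes). No filter gave 11 (6.90%), no intensity trend 14 (10.5%) and array weights 19 (19.3%), with the lowest weight (0.29) on SS control 3. The count was 6 with only the arrays compared (6.70%) and 6 without SS control 3 and BN HTV 3 together (9.55%). Leaving out 1 array gave 2 to 16 members (3.44% to 11.3% of all genes). In HTV lungs 1 was called between strains (7.28% of all genes). It was 0 with no filter (4.52%), median centring (7.01%), no intensity trend (6.65%) and the beta-actin ratio as covariate (2.72%). The count was 2 with the 60th percentile filter (8.45%), quantile normalization (7.71%), only the arrays compared (6.77%) or those 2 arrays out (9.36%). Array weights gave 4 (9.82%), and leaving out 1 array gave 0 to 3 (3.15% to 10.5%). For HTV in SS 2 were called (8.04% of all genes), and 1 with only the arrays compared (4.40%). Quantile normalization gave 3 (8.06%), adding Psmb1, and leaving out 1 array gave 1 to 2 (3.54% to 7.98%). For HTV in BN 1 was called (5.68% of all genes), and 2 with array weights (8.74%) and with those 2 arrays out (8.61%). Leaving out 1 array gave 0 to 2 (2.91% to 7.62%). The interaction count was 0 in the 23 alternatives that could give it. No paired analysis was possible because the labels number the animals separately and name no pairs between groups. The number of arrays limits the precision, and the distance from background of single values is unknown.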

Other observations

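Other genes that share regulators with the proteasome were set beside it. Of 6 genes of the Nrf2 response, 3 were called higher with HTV in each strain, against 3.92% of all genes in SS and 2.99% in BN. In SS 2 of the 6 were below 0 (lowest -0.26), and in BN all 6 were above 0. Between the control groups 1 of the 6 was called lower in SS than in BN (-0.71, adjusted p = 0.00441). Srxn1, which repairs oxidised peroxiredoxins, rose by 1.27 in SS (adjusted p = 0.000108) and 0.82 in BN (adjusted p = 0.00269). Gclc, an enzyme of glutathione synthesis, rose by 0.53 and 0.43 (adjusted p = 0.0159 and 0.0488), and Txnrd1, a thioredoxin reductase, by 0.38 and 0.42 (adjusted p = 0.0483 and 0.0372). Over the same arrays 0 of the 39 proteasome genes were called higher by limma in either strain, against those shares of 3.92% and 2.99%. At an unadjusted p below 0.05, 1 in SS and 5 in BN were higher. The difference between the Nrf2 and proteasome genes was not tested.

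Of 6 interferon-related genes, all 6 were above 0 between SS and BN in control lungs and 2 were called. Irf7, a transcription factor of the interferon response, was higher in SS by 1.20 ± 0.23 in control lungs (adjusted p = 0.00551) and by 1.72 in HTV lungs (adjusted p = 0.000566). Nlrc5, which drives MHC class I genes, was higher by 0.74 (adjusted p = 0.0151) and 0.86 (adjusted p = 0.00809). The inducible subunits Psmb8 and Psmb9 differed by 0.18 and 0.33 in control lungs and did not pass.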
